A study of Arabidopsis thaliana with 102 samples.

Results

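The genes described here encode 10 ethylene response factors (ERFs) of Arabidopsis thaliana that are known for stress, jasmonate and ethylene responses: *ERF1*, *ORA59*, *ERF2*, *ERF4*, *ERF5*, *ERF6*, *ERF13*, *ERF104*, *ERF105* and *ERF109*. They were chosen by name from the 34133 genes listed, and 9 of them passed the filter on low values, an FPKM above 1 in at least 1 library. *ERF109* did not. The study followed recovery from endoplasmic reticulum (ER) stress in whole seedlings, which were 5 days old and were kept for 6 h in 500 ng/mL tunicamycin (Tm, a blocker of protein N-glycosylation) or in its solvent DMSO before transfer to medium without drug. Sampling followed at 0, 12 and 24 h after the transfer, with 3 biological replicates of 12 pooled seedlings each. The genotypes were wild-type Col-0 and the single knockout lines *bzip28-2* and *bzip60-2*, each 1 T-DNA allele in a transcription factor gene of the unfolded protein response (UPR). This gave 18 groups of 3 RNA-seq libraries, 54 in all. Binding was mapped by ChIP-seq with a GFP antibody in 1 line that expressed GFP-bZIP28 from the 35S promoter in Col-0 and in 1 line that expressed GFP-bZIP60 from the bZIP60 promoter in a bzip60 knockout.

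ERFs carry a single AP2 domain, by which many of them bind the GCC-box of defence gene promoters. *ERF1* and *ORA59* are activators that join the ethylene and jasmonate signals and switch on plant defensin genes, whereas *ERF4* carries an EAR motif and acts as a repressor. *ERF2* is a GCC-box activator. *ERF5*, *ERF6* and *ERF104* respond quickly to stress and are linked to the mitogen-activated protein kinases MPK3 and MPK6. *ERF105* is known from the cold response, and *ERF109* from reactive oxygen and wound jasmonate signalling. *ERF13* belongs to the same group IX of the family as most of these genes.

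In the TAIR10.1 annotation all 10 genes had a single exon, which 18.94% of the 27444 nuclear protein-coding genes shared. *ERF1* (AT3G23240) lies at chr3:8295617-8296604 on the plus strand, *ORA59* (AT1G06160) at chr1:1882907-1883992 on the plus strand and *ERF13* (AT2G44840) at chr2:18495215-18496327 on the plus strand. *ERF2* (AT5G47220, chr5:19171643-19172956, minus strand) and *ERF5* (AT5G47230, chr5:19179881-19181182, plus strand) point away from each other 6924 bases apart, with 1 protein-coding gene between them. *ERF6* (AT4G17490, chr4:9752824-9754161, minus strand) lies 5041 bases from its divergent neighbour *ERF1A*. *ERF104* (AT5G61600, chr5:24766344-24767732, minus strand) lies 832 bases from *ERF107* on the same strand, upstream of it in the direction of transcription. *ERF4* (AT3G15210) lies at chr3:5121303-5122562 on the plus strand, *ERF105* (AT5G51190) at chr5:20800473-20801437 on the minus strand and *ERF109* (AT4G34410) at chr4:16451876-16453260 on the plus strand. Starts below are those of the mRNA, which for *ERF4* begins at position 5121422, 119 bases inside the span of the gene.

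The 250 bases before the mRNA start are shown for 5 of the genes, 5′ to 3′ on each gene's own strand, from the RefSeq TAIR10.1 assembly. They cover chr3:8295367-8295616 (plus) for *ERF1*, chr1:1882657-1882906 (plus) for *ORA59*, chr5:19172957-19173206 (minus) for *ERF2*, chr5:19179631-19179880 (plus) for *ERF5* and chr4:9754162-9754411 (minus) for *ERF6*. Capitals mark exact matches, on either strand, to a W-box (TTGACC or TTGACT, seen as AGTCAA on the opposite strand), a G-box (CACGTG) or a GCC-box (GCCGCC).
ERF1: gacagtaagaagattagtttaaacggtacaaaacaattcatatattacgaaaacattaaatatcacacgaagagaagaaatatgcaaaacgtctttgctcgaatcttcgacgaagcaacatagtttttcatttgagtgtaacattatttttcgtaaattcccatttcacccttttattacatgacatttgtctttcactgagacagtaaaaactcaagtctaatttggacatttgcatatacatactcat
ORA59: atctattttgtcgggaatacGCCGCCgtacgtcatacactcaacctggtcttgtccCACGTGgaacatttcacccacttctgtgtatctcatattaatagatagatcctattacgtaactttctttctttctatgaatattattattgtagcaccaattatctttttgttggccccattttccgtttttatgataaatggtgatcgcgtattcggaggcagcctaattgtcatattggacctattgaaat
ERF2: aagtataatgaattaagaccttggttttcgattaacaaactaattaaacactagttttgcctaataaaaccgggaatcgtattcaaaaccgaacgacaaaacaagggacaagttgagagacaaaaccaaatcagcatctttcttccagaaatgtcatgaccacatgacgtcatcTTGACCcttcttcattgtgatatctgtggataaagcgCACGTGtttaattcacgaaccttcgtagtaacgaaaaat
ERF5: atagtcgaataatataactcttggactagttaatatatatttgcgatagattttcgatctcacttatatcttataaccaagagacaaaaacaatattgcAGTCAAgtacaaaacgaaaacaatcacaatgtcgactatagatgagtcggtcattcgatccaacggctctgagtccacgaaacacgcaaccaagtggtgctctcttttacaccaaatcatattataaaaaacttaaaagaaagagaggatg
ERF6: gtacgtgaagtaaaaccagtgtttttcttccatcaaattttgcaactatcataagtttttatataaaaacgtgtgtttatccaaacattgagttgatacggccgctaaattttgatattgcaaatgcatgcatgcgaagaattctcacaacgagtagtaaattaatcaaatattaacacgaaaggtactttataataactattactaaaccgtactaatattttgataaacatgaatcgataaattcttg

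Motifs were searched before 9 of the genes, all but *ERF105*. Within 250 bases a W-box was matched before 3 of these 9, namely *ERF2*, *ERF4* and *ERF5*, against 28.4% of the 27444 promoters of the same length. The *ERF4* match, 89 to 94 bases before the mRNA start, lay inside the span of the gene. The G-box was matched before *ORA59*, *ERF2*, *ERF4* and *ERF109*, against 6.49% of promoters. Only *ORA59* among them had a GCC-box in this window, a match that 1.873% of promoters held. The UPR motifs ERSE-I (CCAATNNNNNNNNNNCACG, held by 0.685% of promoters) and UPRE-I (TGACGTGG or TGACGTGA, 1.818%) had 0 matches before the 9 genes, and in 1000 bases the count was also 0 for both. A W-box lay within 1000 bases of 7 of the 9 starts, where 67.28% of all promoters had one. A match is a description of these letters and says nothing of binding.

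The libraries were alike in summed FPKM (fragments scaled to transcript length and sequencing depth), from 819066 to 918448. A relative depth read from the steps of low values ran from 0.838 to 1.26. The 10 most abundant genes took 5.16 to 11.4% of the sum. Scale factors by median ratios differed between groups and were lowest in the Col-0 DMSO libraries of 12 h (0.814, 0.835 and 0.850). At 12 h they were 0.887, 0.902 and 1.01 in DMSO-treated *bzip28-2* and 1.04, 0.905 and 0.924 in DMSO-treated *bzip60-2*. The highest was 1.12, in DMSO-treated *bzip60-2* at 0 h. The main fits used FPKM without this scaling. Within groups the correlation of libraries had a median of 0.982 and a lowest value of 0.965. *BIP3*, an ER chaperone gene and standard UPR marker, was higher under Tm in all 9 comparisons. The mutant lines still gave reads from the interrupted genes: bZIP28 had a mean of 10.2 FPKM in DMSO-treated *bzip28-2* at 12 h and bZIP60 had 30.8 FPKM in DMSO-treated *bzip60-2*. Defining markers of root, shoot, phloem, xylem and guard cells were above 0 in every library. Whole seedlings mix cell types, so fewer cells of a type and less RNA per cell cannot be told apart in any value below.

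Over the 54 libraries the genes fell into 3 ranges of FPKM, which is scaled to transcript length. *ERF4* was the most abundant, with a median of 20.8 FPKM (lowest 10.7, highest 32.1), followed by *ERF2* (12.2, from 3.61 to 72.6), *ERF104* (11.5, from 5.62 to 24.9) and *ERF5* (9.65, from 4.49 to 27.0). *ERF105* (5.64, from 0.984 to 14.8), *ERF6* (5.51, from 1.71 to 21.6) and *ORA59* (5.28, from 1.44 to 13.3) had nearly equal medians and overlapping ranges, with the highest value in *ERF6*. *ERF13* (0.552, from 0.0629 to 2.45) and *ERF1* (0.493, from 0 to 3.73) stood lower, and *ERF109* (0.105, from 0 to 0.420) was listed at 0 in 8 libraries. As a ratio of highest to lowest, the range was widest for *ERF2* and narrowest for *ERF4* among the abundant genes. *ERF1* was above 1 FPKM in 21 libraries.

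**Figure D1:**
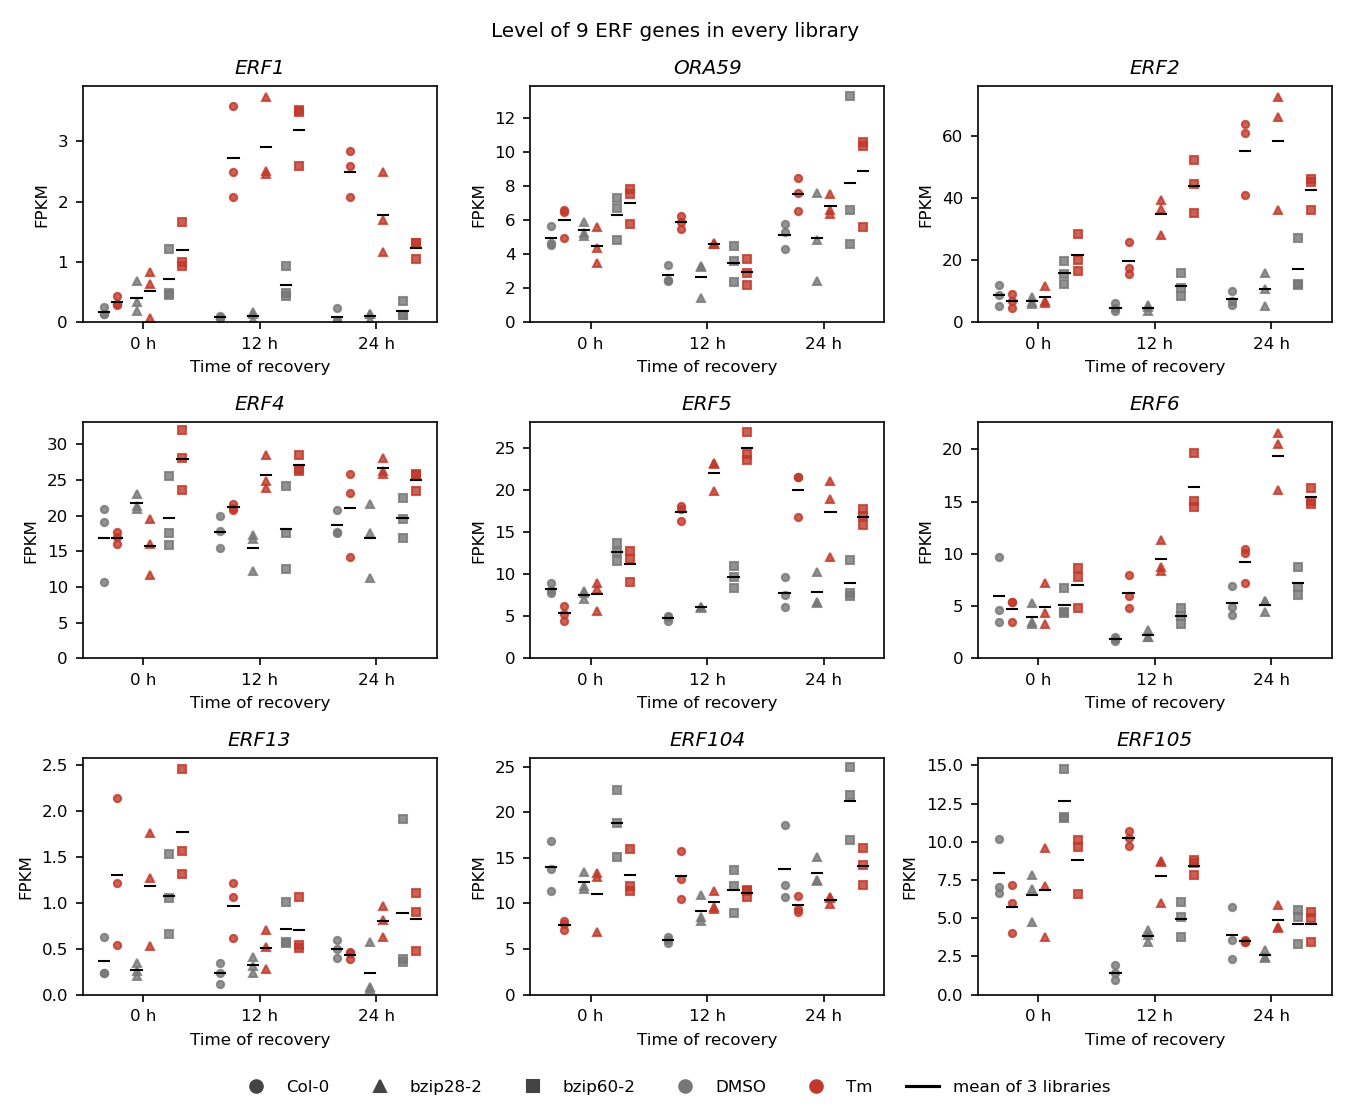
FPKM of the 9 ERF genes above the low-value filter in each of the 54 libraries (circles Col-0, triangles bzip28-2, squares bzip60-2; grey DMSO, red Tm; black lines are means of 3 libraries) against hours of recovery. ERF1, ERF2, ERF5 and ERF6 show red groups above grey ones at 12 and 24 h in every genotype, whereas ERF4 stays between 10.7 and 32.1 throughout.

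Tm-treated seedlings were compared with DMSO-treated ones of the same genotype and time-point to ask how the genes behaved as ER stress subsided. A gene was called where its adjusted p fell below 0.01 and its log2 fold change exceeded 1 in size, on the scale of log2(FPKM + 1), which understates changes of genes with low values. At 0 h, directly after the 6 h treatment, limma called 0 of 27 gene and genotype comparisons, with 8 at an unadjusted p under 0.05. Among all 21864 genes tested, 0.627% were called higher for Col-0, 0.938% for *bzip28-2* and 0.512% for *bzip60-2*, and 0.325, 0.581 and 0.338% lower. At 12 h 13 of 27 were called, all higher: *ERF1*, *ERF2*, *ERF5* and *ERF6* rose in all 3 genotypes and *ERF105* rose in Col-0. That is 5 of 9 genes in Col-0 (background 7.18%), 4 of 9 in *bzip28-2* (8.65%) and 4 of 9 in *bzip60-2* (8.08%). At 24 h 6 of 27 were called, all higher, namely 3 of 9 in Col-0 (7.39%), 2 of 9 in *bzip28-2* (3.93%) and 1 of 9 in *bzip60-2* (5.36%). The share of all genes called lower, against 0 of the 9 in each genotype, was 1.78, 5.76 and 6.13% at 12 h and 3.22, 1.80 and 0.974% at 24 h.

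The median log2 fold change of the 9 genes at 12 h was 1.33 for Col-0, 0.84 for *bzip28-2* and 0.67 for *bzip60-2*, where the medians of all genes were 0.08, 0.03 and 0.04. At 24 h the gene medians were 0.48, 0.70 and 0.34, against 0.04, 0.11 and 0.07. In Col-0 at 12 h the 3 Tm libraries lay above the 3 DMSO libraries for all 9 genes, an arrangement found for 36.5% of all genes tested. The same held for 7 of 9 genes in *bzip28-2* (33.0% of all genes) and 6 of 9 in *bzip60-2* (31.8%). At 24 h it held for 5, 7 and 5 of the 9 genes, where the shares of all genes were 31.6, 30.9 and 31.6%. At 0 h it held for 1, 1 and 0 genes (11.4, 19.0 and 8.77%), and 2, 1 and 1 lay below without overlap (12.6, 15.5 and 16.2%).

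**Figure D2:**
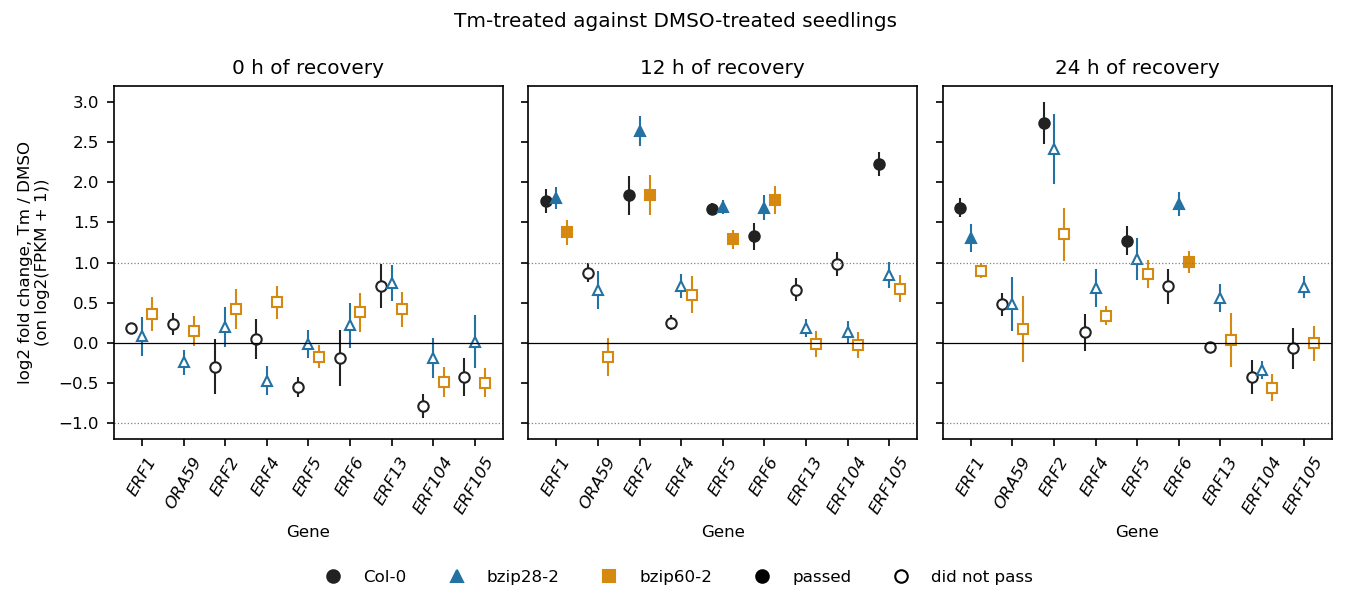
log2 fold change of Tm-treated against DMSO-treated seedlings (y axis, on log2(FPKM + 1), bars are SE from limma, 3 against 3 libraries) for each gene (x axis) and genotype at 0, 12 and 24 h. Filled symbols passed the threshold (13 of 27 at 12 h, 6 of 27 at 24 h, 0 of 27 at 0 h), and dotted lines mark a log2 fold change of 1 and -1.

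*ERF1* was below 0.3 FPKM in every DMSO library of Col-0, whereas 1 DMSO library of *bzip60-2* reached 1.22 at 0 h. At 12 h its FPKM in Col-0 was 0.0710, 0.0978 and 0.0786 with DMSO and 2.08, 3.59 and 2.49 with Tm. The corresponding values in *bzip28-2* were 0.134, 0.163 and 0.0318 with DMSO and 3.73, 2.46 and 2.51 with Tm. For *bzip60-2* they were 0.493, 0.437 and 0.931 with DMSO and 2.58, 3.51 and 3.48 with Tm. In each genotype every Tm library was above every DMSO library, and the DMSO libraries of *bzip60-2* were all above those of the other genotypes. The log2 fold changes were 1.76 ± 0.15 (SE, adjusted p = 0.000512) in Col-0, 1.80 ± 0.14 (SE, adjusted p = 0.000284) in *bzip28-2* and 1.38 ± 0.16 (SE, adjusted p = 0.00161) in *bzip60-2*. With a pseudocount of 0.1 in place of 1 the Col-0 value was 3.92 (adjusted p = 0.000146), so its size depends on this choice while the call does not.

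The elevation of *ERF1* was still present a day after transfer. At 24 h Col-0 had 0, 0.230 and 0.0356 FPKM with DMSO and 2.07, 2.58 and 2.84 with Tm. In *bzip28-2* the libraries had 0.0377, 0.140 and 0.145 with DMSO and 1.70, 1.17 and 2.49 with Tm, and in *bzip60-2* 0.113, 0.351 and 0.119 and 1.32, 1.31 and 1.05. No groups overlapped, and the Tm libraries of *bzip60-2* were all below those of Col-0. The log2 fold changes were 1.68 ± 0.12 (SE, adjusted p = 0.000341), 1.305 ± 0.17 (SE, adjusted p = 0.00667) and 0.90 ± 0.10 (SE, adjusted p = 0.00272), the last under the fold limit. With a pseudocount of 0.1 this *bzip60-2* value was 2.26 and passed. The *bzip28-2* call held only without Tm replicate 2 among the 6 fits that left out 1 library, with adjusted p from 0.00307 to 0.0356. At 0 h the Col-0 values were 0.137, 0.145 and 0.251 with DMSO and 0.430, 0.281 and 0.304 with Tm, all below 0.5.

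*ORA59*, which with *ERF1* controls the defensin branch, had smaller fold changes from a higher level. Its FPKM in Col-0 at 12 h was 2.51, 3.37 and 2.45 with DMSO and 5.49, 5.87 and 6.26 with Tm. In *bzip28-2* it was 3.25, 3.33 and 1.44 with DMSO and 4.65, 4.61 and 4.61 with Tm. In *bzip60-2* it was 2.36, 4.50 and 3.58 with DMSO and 2.19, 2.88 and 3.74 with Tm. The groups separated in Col-0 and *bzip28-2* and overlapped in *bzip60-2*. The log2 fold changes were 0.87 ± 0.12 (SE, adjusted p = 0.00259) in Col-0, under the fold limit, 0.66 ± 0.24 (SE, adjusted p = 0.0671) in *bzip28-2* and -0.18 ± 0.24 (SE, adjusted p = 0.584) in *bzip60-2*. At 24 h they were 0.48 ± 0.14, 0.49 ± 0.33 and 0.17 ± 0.41, and none passed.

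*ERF2* had the largest log2 fold change of the 9 genes at 12 and 24 h in all comparisons but Col-0 at 12 h, where *ERF105* exceeded it. At 12 h Col-0 had 4.47, 6.12 and 3.64 FPKM with DMSO and 15.5, 25.9 and 17.6 with Tm. In *bzip28-2* it had 5.67, 4.95 and 3.61 and 36.6, 28.2 and 39.3, and in *bzip60-2* 8.43, 10.9 and 15.8 and 35.1, 52.2 and 44.4. Tm libraries lay above DMSO libraries without overlap in each genotype. On the log2 scale the changes were 1.84 ± 0.24 (SE, adjusted p = 0.00237), 2.64 ± 0.19 (SE, adjusted p = 0.000214) and 1.84 ± 0.25 (SE, adjusted p = 0.00283). Leaving out Col-0 DMSO replicate 1 or 3 gave 1.81 (adjusted p = 0.0128) or 1.69 (adjusted p = 0.0101), and in *bzip60-2* the call was lost without DMSO replicate 2 or Tm replicate 2 or 3 (adjusted p up to 0.0148).

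At 24 h *ERF2* in Col-0 reached 63.7, 41.0 and 61.0 FPKM with Tm, against 5.43, 10.1 and 6.98 with DMSO. The *bzip28-2* values were 5.26, 15.8 and 10.6 with DMSO and 66.1, 36.3 and 72.6 with Tm, and those of *bzip60-2* were 12.3, 27.3 and 11.9 and 45.0, 46.2 and 36.2. Again no groups overlapped, although DMSO replicate 2 was the highest DMSO library in all 3 genotypes. The log2 fold change of 2.74 ± 0.26 (SE, adjusted p = 0.000819) in Col-0 passed, whereas 2.41 ± 0.44 (SE, adjusted p = 0.0148) in *bzip28-2* and 1.35 ± 0.33 (SE, adjusted p = 0.0281) in *bzip60-2* did not. Without *bzip60-2* DMSO replicate 2 the last became 1.72 (adjusted p = 0.0021), which passed.

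*ERF4*, the EAR-motif repressor, was called in 0 of 9 comparisons by limma. In Col-0 at 12 h it had 19.9, 15.5 and 17.9 FPKM with DMSO and 21.2, 21.7 and 20.8 with Tm. The *bzip28-2* libraries had 16.8, 17.3 and 12.3 with DMSO and 24.9, 28.6 and 23.9 with Tm. These Tm groups lay above their DMSO groups, but the log2 fold changes were 0.25 ± 0.09 for Col-0, 0.71 ± 0.15 for *bzip28-2* and 0.60 ± 0.23 for *bzip60-2*, the largest with an adjusted p of 0.0107. At 24 h they were 0.13 ± 0.23, 0.68 ± 0.23 and 0.34 ± 0.12.

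*ERF5* and *ERF6* are close relatives that limit growth under stress, and both were higher under Tm at 12 h in all genotypes. *ERF5* in Col-0 had 4.51, 5.04 and 4.89 FPKM with DMSO and 17.7, 18.2 and 16.4 with Tm. In *bzip28-2* it had 6.13, 6.13 and 6.06 and 23.2, 19.9 and 23.1, and in *bzip60-2* 9.66, 11.0 and 8.39 and 23.7, 24.4 and 27.0. The gap between groups was wide against their spread, and DMSO libraries of both mutants lay above all Col-0 DMSO libraries. *ERF5* changed on the log2 scale by 1.66 ± 0.07 (SE, adjusted p = 6.40e-05), 1.70 ± 0.09 (SE, adjusted p = 8.49e-05) and 1.29 ± 0.12 (SE, adjusted p = 0.000876). All 3 calls held in each fit that left out 1 library.

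By 24 h *ERF5* in Col-0 had 6.15, 7.53 and 9.64 FPKM with DMSO and 21.6, 16.9 and 21.6 with Tm. The *bzip28-2* values were 6.55, 10.2 and 6.76 and 18.9, 12.1 and 21.1, and the *bzip60-2* values 7.47, 11.7 and 7.81 and 17.8, 15.8 and 17.0. All Tm groups remained above their DMSO groups. Only the Col-0 log2 fold change of 1.27 ± 0.18 (SE, adjusted p = 0.00326) passed, with 1.04 ± 0.26 (SE, adjusted p = 0.0328) in *bzip28-2* and 0.86 ± 0.17 (SE, adjusted p = 0.0158) in *bzip60-2*. The Col-0 call was lost without DMSO replicate 2 or Tm replicate 1 or 3, with values from 1.14 to 1.42 and adjusted p up to 0.0171. At 0 h *ERF5* was lower under Tm in Col-0, at 4.49, 5.35 and 6.24 against 8.11, 8.95 and 7.76 with DMSO, with no overlap and a log2 fold change of -0.55 ± 0.13 (SE, adjusted p = 0.0916) that did not pass.

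*ERF6* rose with a similar size. At 12 h its FPKM was 1.85, 2.02 and 1.71 with DMSO and 5.99, 8.02 and 4.84 with Tm in Col-0. In *bzip28-2* it was 2.02, 2.03 and 2.73 and 8.32, 8.78 and 11.3, and in *bzip60-2* 3.33, 4.80 and 4.03 and 14.5, 15.1 and 19.6. No groups overlapped, and the Tm libraries of *bzip60-2* exceeded all Tm libraries of the other genotypes. This gave log2 fold changes of 1.33 ± 0.17 (SE, adjusted p = 0.00214), 1.68 ± 0.16 (SE, adjusted p = 0.000515) and 1.78 ± 0.17 (SE, adjusted p = 0.000972). In Col-0 the call was lost without DMSO replicate 1 or 3 or Tm replicate 1, with adjusted p up to 0.0117.

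The 24 h values of *ERF6* were 4.96, 4.12 and 6.95 with DMSO and 10.4, 7.25 and 10.1 with Tm in Col-0. They were 4.45, 5.50 and 5.52 and 20.5, 16.1 and 21.6 in *bzip28-2*, and 6.11, 8.71 and 6.87 and 16.3, 14.8 and 15.1 in *bzip60-2*. The Tm libraries of both mutants were all above those of Col-0. The log2 fold changes of 1.72 ± 0.15 (SE, adjusted p = 0.00228) in *bzip28-2* and 1.01 ± 0.13 (SE, adjusted p = 0.00453) in *bzip60-2* passed, and 0.70 ± 0.21 (SE, adjusted p = 0.0454) in Col-0 did not. Each call was kept in 1 of 6 fits without 1 library, with adjusted p up to 0.0205 and 0.0266. The kept fits were those without Tm replicate 2 in *bzip28-2* and without DMSO replicate 2 in *bzip60-2*.

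*ERF13* had its highest fold changes at 0 h, within a low range of levels. At 0 h its FPKM in Col-0 was 0.233, 0.237 and 0.623 with DMSO and 1.22, 0.543 and 2.14 with Tm. In *bzip28-2* it was 0.349, 0.203 and 0.254 and 1.27, 0.528 and 1.76. Tm replicate 2 was the lowest Tm library in both, and the groups overlapped in Col-0. Their log2 fold changes were 0.71 ± 0.28 (SE, adjusted p = 0.263) and 0.75 ± 0.22 (SE, adjusted p = 0.0948). At 12 h it was 0.66 in Col-0 (adjusted p = 0.0123), 0.18 in *bzip28-2* and -0.02 in *bzip60-2*. None passed.

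*ERF104*, a substrate of MPK6 in flagellin signalling, was lower under Tm at 0 h in Col-0, with 13.7, 16.8 and 11.3 FPKM with DMSO and 7.72, 7.09 and 8.03 with Tm. At 12 h the order was turned round, with 5.94, 6.33 and 5.62 with DMSO and 12.7, 15.7 and 10.4 with Tm. Neither pair of groups overlapped. The log2 fold changes were -0.78 ± 0.15 (SE, adjusted p = 0.0581) at 0 h and 0.99 ± 0.15 (SE, adjusted p = 0.00384) at 12 h, so neither passed. Without Col-0 Tm replicate 3 the 12 h value was 1.12 (adjusted p = 0.00317), which passed. In the mutants at 12 h the values were 0.14 ± 0.14 and -0.02 ± 0.16. At 24 h they were -0.42, -0.33 and -0.55, with Tm groups below DMSO groups in both mutants and adjusted p of 0.0643 and 0.0548.

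*ERF109*, which in wounded roots activates the tryptophan biosynthesis gene *ASA1*, was near the limit of detection, and no fold is given. At 24 h in Col-0 it was listed at 0 in all 3 DMSO libraries and at 0.337, 0.267 and 0.392 FPKM with Tm. The *bzip28-2* libraries had 0.0313, 0.0793 and 0.0525 with DMSO and 0.346, 0.103 and 0.410 with Tm at this time-point. In *bzip60-2* the values were 0.124, 0.221 and 0.0221 with DMSO and 0.242, 0.215 and 0.209 with Tm. All values were below 0.5, and the groups overlapped in *bzip60-2* only.

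*ERF105* was the only one of the 9 genes whose response to Tm was called different between genotypes on fold changes formed per replicate number. At 12 h its FPKM in Col-0 was 1.91, 1.40 and 0.984 with DMSO and 10.2, 10.7 and 9.75 with Tm. In *bzip28-2* it was 3.44, 3.92 and 4.21 with DMSO and 8.66, 6.01 and 8.72 with Tm. In *bzip60-2* it was 6.04, 3.79 and 5.10 with DMSO and 8.84, 7.83 and 8.63 with Tm. Tm libraries exceeded DMSO libraries in each genotype. Both arms differed from Col-0: the DMSO libraries of the mutants were all above those of Col-0, and their Tm libraries were all below. The log2 fold change was 2.23 ± 0.15 (SE, adjusted p = 0.000245) in Col-0, 0.84 ± 0.16 (SE, adjusted p = 0.00786) in *bzip28-2* and 0.67 ± 0.17 (SE, adjusted p = 0.0217) in *bzip60-2*, of which only the first was past the fold limit. Without *bzip28-2* Tm replicate 2 the *bzip28-2* value was 1.00 (adjusted p = 0.00392), which passed.

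The difference itself was tested on the fold changes formed per replicate number, and called at an adjusted p under 0.05. For *ERF105* at 12 h it was -1.38 ± 0.21 (SE, adjusted p = 0.0347) for *bzip28-2* minus Col-0 and -1.55 ± 0.19 (SE, adjusted p = 0.0255) for *bzip60-2* minus Col-0. It was 1 of 9 genes called lower in each mutant, where 2.17% and 2.32% of all genes were, and 0 of 9 were called higher (all genes 1.22% and 1.14%). Both differences share the 6 Col-0 libraries. With 1 replicate left out the *bzip28-2* difference ran from -1.52 to -1.21 and its call was lost in 12 of 12 fits (adjusted p from 0.0758 to 0.107), and the *bzip60-2* difference ran from -1.69 to -1.44 and its call was lost in 8 of 12 fits (adjusted p from 0.0394 to 0.128). Those 8 fits left out any of the 6 Col-0 libraries or the DMSO or Tm library of *bzip60-2* replicate 3. A fold change needs both libraries of its replicate number, so leaving out either one dropped both. The fits without the DMSO and without the Tm library of a number are therefore the same fit, and both are counted here.

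**Figure D3:**
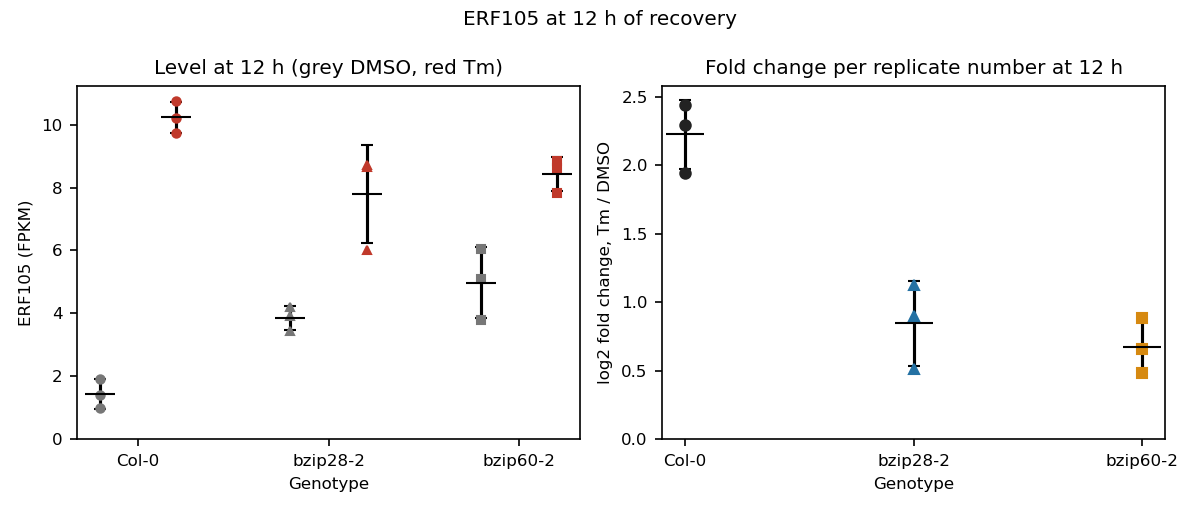
Left, FPKM of ERF105 at 12 h of recovery in each library by genotype (grey DMSO, red Tm). Right, log2 fold change of Tm against DMSO formed for each replicate number on log2(FPKM + 1). Horizontal bars are means of 3 and vertical bars are SD. The means on the right are 2.23 for Col-0, 0.84 for bzip28-2 and 0.67 for bzip60-2.

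Other genes came near the threshold for a difference from Col-0 at 12 h. In *bzip60-2* it was -1.05 ± 0.20 (SE, adjusted p = 0.0557) for *ORA59* and -1.01 ± 0.20 (SE, adjusted p = 0.0569) for *ERF104*. The *ERF104* difference passed without a replicate block (adjusted p = 0.0297), in 1 fit over all libraries (adjusted p = 0.0111) and over genes with a mean FPKM of at least 1 (adjusted p = 0.0337), and *ORA59* passed in the last of these (adjusted p = 0.0360). For *bzip28-2* the *ERF104* difference was -0.85 ± 0.19 (SE, adjusted p = 0.0751) and that of *ERF2* was 0.80 ± 0.24 (SE, adjusted p = 0.136), in the opposite direction. *ERF1*, *ERF5* and *ERF6* had differences of 0.04 ± 0.19, 0.03 ± 0.11 and 0.36 ± 0.15 in *bzip28-2*, and -0.38 ± 0.19, -0.38 ± 0.16 and 0.45 ± 0.21 in *bzip60-2*. At 24 h limma called 0 of 18, with 5 at an unadjusted p under 0.05 and at most 0.00457% of all genes called in any direction. The nearest were *ERF6* in *bzip28-2* at 1.02 ± 0.21 (SE, adjusted p = 0.167) and *ERF1* in *bzip60-2* at -0.78 ± 0.13 (SE, adjusted p = 0.151). At 0 h it called 0 of 18, with 0 at an unadjusted p under 0.05.

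The DMSO levels alone were also compared between genotypes, since the mutant DMSO libraries set part of the difference. limma called 0 of 54 comparisons, where from 0.00457 to 0.0137% of all genes were called in 1 direction. An unadjusted p under 0.05 was met by 17, a count whose share over all genes is not given here. DMSO-treated *bzip60-2* lay above Col-0 without overlap for 5 of 9 genes at 0 h (18.9% of all genes) and 1 of 9 at 24 h (8.59%). At 12 h it did so for 7 of 9 genes, an arrangement 24.6% of all genes shared. The log2 differences there were 1.298 ± 0.21 (SE, adjusted p = 0.0419) for *ERF105*, 0.87 ± 0.12 (SE, adjusted p = 0.0355) for *ERF5* and 0.81 ± 0.13 (SE, adjusted p = 0.0422) for *ERF6*. In *bzip28-2* the count was 4 of 9 (20.8% of all genes), with 1.01 ± 0.16 (SE, adjusted p = 0.23) for *ERF105*. With 1 fit over all 54 libraries the *bzip60-2* value of *ERF105* had an adjusted p of 0.000169 and passed.

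Genes that respond to touch and other sudden stress were set beside these values. limma called 0 of 8 in either mutant at 12 h, with 8 in *bzip60-2* and 5 in *bzip28-2* at an unadjusted p under 0.05. For these genes (*TCH2*, *TCH3*, *TCH4*, *ZAT10*, *ZAT12*, *WRKY40*, *WRKY33* and *SZF1*), DMSO-treated *bzip60-2* at 12 h had a median log2 difference from Col-0 of 1.47 and *bzip28-2* of 0.34, against 0.81 and 0.10 for the 9 ERF genes and 0.15 and 0.11 for all genes. *WRKY40*, for example, had a mean of 12.7 FPKM in DMSO-treated *bzip60-2* and 1.67 in Col-0 (log2 difference 2.35 ± 0.13 (SE, adjusted p = 0.0108), not called). The difference in Tm response was called lower in *bzip60-2* for 4 of the 8, namely *TCH3*, *WRKY40*, *WRKY33* and *SZF1*, and in *bzip28-2* for 0. Across the 54 libraries the mean deviation of the 9 ERF genes from their group means had a Pearson r of 0.7593 with that of the 8 genes, and 0.8020 over the 27 DMSO and 0.7079 over the 27 Tm libraries. The points share libraries and depth, and the part of handling or of this programme in the ERF values was not tested.

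Root markers were also lower under Tm. The summed level of 5 root genes (PYK10, *COBL9*, *EXPA7*, CASP1 and *PRP3*) at 12 h ran from 2451 to 3029 FPKM with DMSO and from 1702 to 2007 with Tm in Col-0. In *bzip28-2* it ran from 2848 to 3264 and from 1344 to 1574, and in *bzip60-2* from 3195 to 4687 and from 1537 to 1849.8. Tm libraries were lower in all genotypes, and 0 of 5 genes were called lower in Col-0, 5 of 5 in *bzip28-2* and 2 of 5 in *bzip60-2*, with median log2 fold changes of -0.58, -1.74 and -1.16. The difference from Col-0 itself was called lower for *COBL9*, *EXPA7* and *PRP3* in *bzip28-2* and for *PRP3* in *bzip60-2*. The summed level of the 3 shoot genes RBCS1A, LHCB1.3 and CA1 ran from 33060.1 to 40604 with DMSO and from 20303 to 25567 with Tm in Col-0. It ran from 24964 to 31890.1 and from 10988 to 18097 in *bzip28-2*, and from 22160.5 to 27351.5 and from 5477 to 11894 in *bzip60-2*. None of these markers was at 0 in any library, and the part of tissue makeup in the *ERF105* difference was not tested.

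The time-course without Tm was followed in DMSO-treated seedlings against their own 0 h group. At 12 h limma called 2 of 27 comparisons, with 16 at an unadjusted p under 0.05. These were *ERF105* and *ERF104*, which fell in Col-0, so that 2 of 9 genes were called lower there against 2.20% of all genes. In *bzip28-2* and *bzip60-2* it called 0 of 9, where 1.03% and 1.01% of all genes were called lower. *ERF105* in Col-0 had 7.03, 10.2 and 6.62 FPKM at 0 h and the 12 h values already given, with no overlap and a log2 change of -1.88 ± 0.21 (SE, adjusted p = 0.00367). *ERF104* had 13.7, 16.8 and 11.3 at 0 h and 5.94, 6.33 and 5.62 at 12 h, with a log2 change of -1.09 ± 0.15 (SE, adjusted p = 0.00578). All 3 later libraries lay below all 3 earlier ones for both genes, as they did for 6 of the 9 genes in Col-0 (42.5% of all genes), 8 in *bzip28-2* (34.2%) and 4 in *bzip60-2* (30.8%). The same Col-0 DMSO libraries of 12 h enter the Tm comparison and the genotype difference above.

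In this comparison the median of all genes was -0.23. After scaling by median ratios *ERF105* was at -1.69 (adjusted p = 0.00605) and still passed, whereas *ERF104* was at -0.83 (adjusted p = 0.014) and did not. The *ERF104* call was lost in 6 of 6 fits without 1 library, and that of *ERF105* in 5 of 6, all but the fit without Col-0 DMSO 0 h replicate 1, with adjusted p up to 0.0295 and 0.0190. The 8 touch and stress genes had a median of -1.14 in Col-0, and 5 of them (*TCH2*, *TCH3*, *TCH4*, *WRKY40* and *WRKY33*) were called lower. *TCH4* had the largest change among these, -3.82 ± 0.26 for Col-0, -2.75 ± 0.25 for *bzip28-2* and -3.42 ± 0.14 for *bzip60-2*. Time since transfer, time of day and age go together in this design and cannot be told apart.

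In the DMSO time-course *ERF105* was the only one of the 9 genes with a call at 24 h. In DMSO-treated *bzip60-2* it had 11.6, 11.6 and 14.8 FPKM at 0 h and 3.32, 5.08 and 5.55 at 24 h. In *bzip28-2* it had 6.93, 4.74 and 7.81 and 2.39, 2.92 and 2.49, and in Col-0 2.36, 3.60 and 5.74 at 24 h. Groups were separate in all 3 genotypes, with log2 changes of -1.29 ± 0.20 (SE, adjusted p = 0.00836) in *bzip60-2*, -1.04 ± 0.18 (SE, adjusted p = 0.0152) in *bzip28-2* and -0.91 ± 0.29 (SE, adjusted p = 0.0771) in Col-0. Of all genes 3.15% were called lower in *bzip60-2*, 1.39% in *bzip28-2* and 1.16% in Col-0. The *bzip60-2* call was lost in 6 of 6 fits without 1 library, with values from -1.41 to -1.11 and adjusted p from 0.0125 to 0.0310. With Tm, *ERF105* in Col-0 had returned to 3.44, 3.60 and 3.45 FPKM by 24 h, within the range of DMSO. The *bzip60-2* Tm libraries of 24 h (5.01, 3.46 and 5.39) also overlapped DMSO. In *bzip28-2* the Tm libraries (4.41, 5.86 and 4.35) all lay above DMSO. Its log2 fold changes per replicate number were 0.67, 0.81 and 0.62, under the fold limit.

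**Figure D4:**
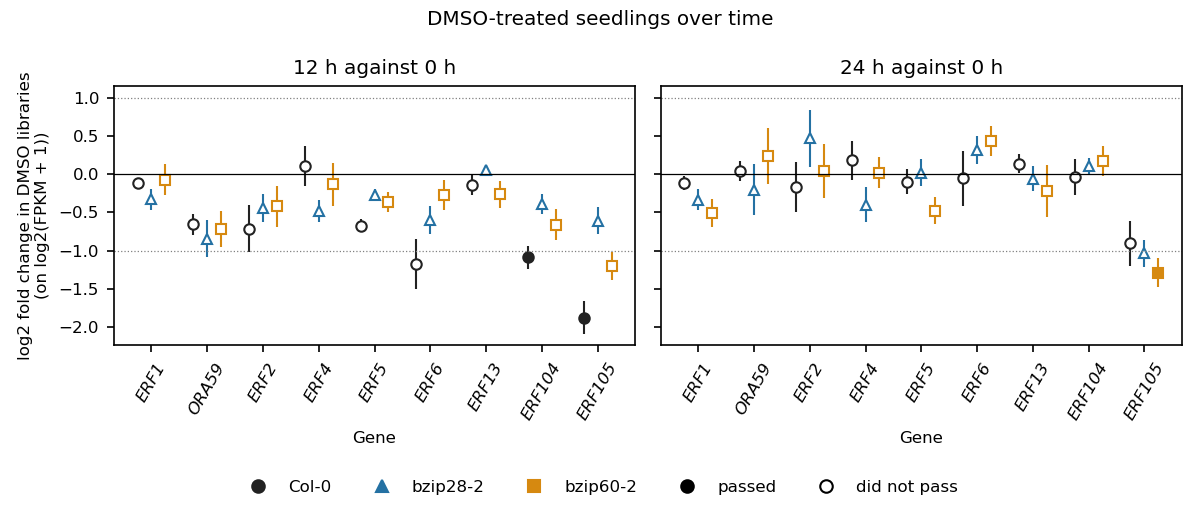
log2 fold change of DMSO-treated seedlings at 12 h (left) and 24 h (right) against 0 h (y axis, on log2(FPKM + 1), bars are SE from limma, 3 against 3 libraries) for each gene and genotype. Filled symbols passed the threshold: ERF104 and ERF105 in Col-0 at 12 h and ERF105 in bzip60-2 at 24 h.

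Peaks of GFP-bZIP28 (130, 92 and 454 at 0, 12 and 24 h) and GFP-bZIP60 (250, 47 and 170) were set beside the 10 genes. A peak lay within 1000 bases of the mRNA start of 2 genes, *ERF4* and *ERF5*, both in the GFP-bZIP60 list of 24 h, a distance that 0.645% of the 27444 genes met in that list. The other lists gave 0 of 10, with from 0.401 to 1.17% of all genes. The *ERF5* peak (chr5:19180482-19181625, 1144 bases, peak score 4.91, rank 58 of 170) began 601 bases after the start and covered the end of the gene. For *ERF4* the peak edge was 913 bases from the mRNA start but 1032 from the start of the gene span, so only *ERF5* was within 1000 bases by the span. The *ERF4* peak (chr3:5122335-5123053, score 4.09, rank 113 of 170) had its centre 132 bases past the gene's end, and a GFP-bZIP28 peak of 24 h overlapped it (chr3:5122546-5123009, score 2.35, rank 412 of 454).

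The peak nearest to *ERF2* was alike in place. It was a GFP-bZIP60 peak of 24 h at chr5:19171151-19171822 (score 4.91, rank 57 of 170), centred 156.5 bases past the gene's end. Its nearest edge was 1134 bases from the gene's start, and the deposited annotation gave the peak to the neighbour AT5G47210. None of these peaks lay in the promoter windows printed above. The nearest peak to *ERF6* was 4876 bases from its start, and those of the remaining 6 genes were at least 23507 bases away, with 202361 for *ERF105*. Only peaks that passed the filter against DMSO were used.

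Profiles were compared between the genes, with the Tm groups included. Across the 18 group means of log2(FPKM + 1) the 36 pairs of the 9 genes had a median Pearson r of 0.4141, and 13 pairs were above 0.5. *ERF1* and *ERF5* were the most alike at 0.9327, followed by *ERF2* with *ERF5* at 0.9301 and *ERF2* with *ERF6* at 0.9138, whereas *ERF1* and *ERF104* had -0.0387. When group means were removed, the deviations of the 54 libraries gave a median of 0.3408. In these deviations *ORA59* went with *ERF2* (0.6592) and *ERF104* with *ERF105* (0.6257), and *ERF4* with *ERF104* was the lowest pair at -0.2471. The points share libraries, depth and the treatment contrast, so these values are a description.

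**Figure D5:**
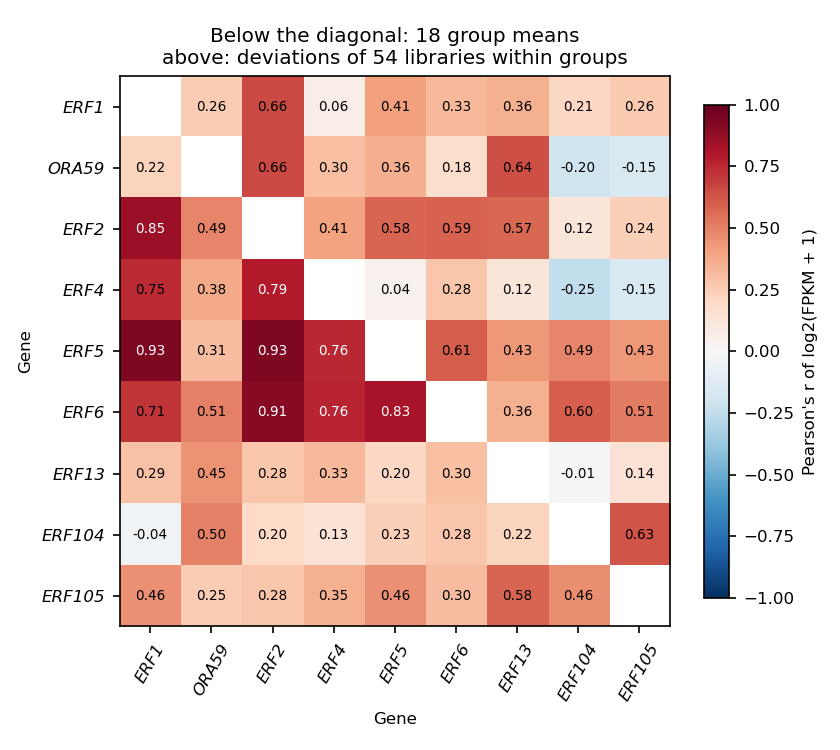
Pearson's r between the 9 genes on log2(FPKM + 1), below the diagonal over 18 group means and above it over the deviations of 54 libraries from their group means (red positive, blue negative, value printed in each cell). Pairs among ERF1, ERF2, ERF5 and ERF6 lie between 0.71 and 0.93 below the diagonal, and those of ERF4 with these 4 genes between 0.75 and 0.79.

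Among the genes tested outside these 9, those with the most similar 18 group means were AT3G02840 (r = 0.9839) and AT1G08050 (0.9814) for *ERF1*, AT1G10410 (0.9800) and AT4G36648 (0.9692) for *ERF2*, and *CRCK2* (0.9819) and *BIR1* (0.9794) for *ERF5*. *ERF6* was most like AT5G66650 (0.9690) and *BGLU46* (0.9687), *ERF105* most like *CNGC1* (0.8939) and AT4G27280 (0.8925), and *ORA59* most like *RPP4* (0.8861) and AT3G53310 (0.8798). Other best matches were those of *ERF4*, with AT1G32690 (0.8895) and *ACA3* (0.8821), of *ERF104*, with *HB23* (0.8300) and AT1G07650 (0.8294), and of *ERF13*, with AT1G68735 (0.8271) and *APO1* (0.8189).

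Other ERF genes of groups VIII, IX and X gave a wider view of the family. Of 20 that passed the low-value filter, out of 23, 5 were called higher under Tm in Col-0 at 12 h, 7 in *bzip28-2* and 4 in *bzip60-2*, and 4, 4 and 3 at 24 h. Their median log2 fold changes at 12 h were 0.34, 0.46 and 0.41. *ERF1A*, the divergent neighbour of *ERF6*, rose in all 6 of these comparisons, by 2.01 ± 0.26, 2.90 ± 0.11 and 2.28 ± 0.26 at 12 h and 2.02 ± 0.27, 2.40 ± 0.36 and 1.80 ± 0.30 at 24 h. *RAP2.6L*, known from wound and tissue reunion responses, and *ABR1*, a repressor in abscisic acid signalling, rose in all genotypes at 12 h. *ERF107*, the neighbour of *ERF104*, fell at 12 h in *bzip28-2* (-1.23 ± 0.16) and *bzip60-2* (-1.16 ± 0.21) and was at -0.12 ± 0.19 in Col-0. At 24 h it fell in Col-0 (-1.02 ± 0.11), and the mutant values of -0.95 ± 0.15 and -0.72 ± 0.13 did not pass. *ERF115*, which drives stem cell division after damage, rose at 24 h in *bzip28-2* (1.75 ± 0.05) and *bzip60-2* (1.32 ± 0.18), and its Col-0 value of 0.54 ± 0.10 did not pass.

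The gene AT5G43410 was listed at 0 in every DMSO library and in every library at 0 h. With Tm at 12 h its mean in Col-0 was 0.341 ± 0.125 FPKM (SD, n = 3). It was 1.96 ± 1.04 for *bzip28-2* and 3.74 ± 1.17 for *bzip60-2*. At 24 h the means were 1.02 ± 0.374, 2.19 ± 0.957 and 1.73 ± 0.529. The values in the 2 mutants were called higher at both time-points. Those of Col-0 missed only the fold limit, with limma log2 fold changes of 0.42 (adjusted p = 0.00508) at 12 h and 0.99 (adjusted p = 0.00321) at 24 h. The difference from Col-0 itself was called for *bzip60-2* at 12 h only.

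Genes upstream and downstream of *ERF1* and *ORA59* had calls in both directions. Of 12 ethylene perception and signalling genes, *CTR1*, the negative regulator kinase, was called higher in all genotypes at 12 h (1.01, 1.08 and 1.08), and *EBF2*, an F-box gene induced by ethylene, in both mutants (1.14 and 1.08, with 0.99 in Col-0). The 12 had medians of 0.71, 0.69 and 0.67. At 24 h limma called 0 of 12 in each genotype, with medians of 0.43, 0.66 and 0.46. Among 7 defence genes downstream of *ERF1* and *ORA59*, *PR4* was lower at 0 h in all genotypes (-2.40, -2.39 and -1.55) and higher at 24 h in Col-0 (1.45 ± 0.20). *CHI-B*, a basic chitinase, fell at 0 h in Col-0 (-2.39 ± 0.21) and *bzip28-2* (-2.51 ± 0.17). The 5 root markers had medians of -1.22, -1.22 and -1.02 at 0 h, and their part in these values was not tested. The defensin *PDF1.2a* fell at 12 h in *bzip28-2* (-1.63 ± 0.16) and *bzip60-2* (-1.36 ± 0.18), at a time when *ERF1* was higher there and *ORA59* was not called. In Col-0 at 12 h 0 of the 7 were called lower. The difference from Col-0 itself was not called for *PDF1.2a* in either mutant.

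The MYC2 branch is driven by jasmonate in competition with *ERF1* and *ORA59*, and 2, 1 and 1 of its 4 genes were called lower at 12 h. *LOX2* fell in all genotypes (-2.33 ± 0.27, -1.18 ± 0.24 and -2.48 ± 0.37) and *VSP2* fell in Col-0 (-1.20 ± 0.23). *ASA1*, a target of *ERF109*, rose at 12 h in all genotypes (2.103 ± 0.12, 2.89 ± 0.08 and 3.04 ± 0.17). *ERF109* itself stayed below 0.5 FPKM. At 12 h its mean with DMSO and with Tm was 0.0806 and 0.0783 in Col-0. The means were 0.0254 and 0.117 in *bzip28-2* and 0.167 and 0.0926 in *bzip60-2*. What raised *ASA1* was not tested. *GA2OX6*, a target of *ERF5* and *ERF6*, was at 0.45, 0.63 and 0.36 and was not called. Of the 8 touch and stress genes 6 were called higher at 12 h in Col-0 and *bzip28-2* and 5 in *bzip60-2*, with medians of 2.31, 2.93 and 1.92.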

How the data were processed

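Per the labels and the study's methods, whole-seedling mRNA of 54 libraries was sequenced with a stranded kit. The authors trimmed reads (cutadapt 1.8.1), aligned them to TAIR10 with TopHat2 2.0.14 over Bowtie2 2.2.4 and deposited FPKM values from Cufflinks 1.3.0, which were used as deposited. These are not counts, so the study's count test was replaced by limma 3.58.1 with a mean-variance trend in R 4.3.3 on log2(FPKM + 1), fitted on the 6 libraries compared, 3 against 3, over the 21864 genes with an FPKM above 1 in at least 1 library. P-values were adjusted by Benjamini-Hochberg over all genes tested. Counts at an unadjusted p under 0.05 have no share of all genes beside them and are a description only. A call needed a log2 fold change beyond 1 in size with an adjusted p below 0.01. For the difference between genotypes, fold changes were formed per replicate number, as the study did, and called at an adjusted p under 0.05.

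ChIP-seq reads were aligned by the authors with Bowtie 1.1.2 and filtered with SAMtools 1.8, and peaks were called with MACS2 2.1.2 and combined over 2 replicates by the irreproducible discovery rate. The deposited peak score is the MACS2 signal value against input. The peak lists hold 1 set per protein and time-point, so replicates cannot be compared. The deposited gene assignments placed 97.47% of 632 promoter peaks within 1000 bases of an mRNA start of the named gene in TAIR10.1, whose RefSeq annotation and sequence were used for positions and promoters (Python 3.11.15, pandas 2.3.3). The *ERF105* promoter is not reported here.

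Groups followed the sample labels. Total reads per RNA-seq library are not given in the sources used here. The labels name biological replicates but no shared batch or day. For same-numbered libraries, 0 of 21 comparisons had all 3 correlations of deviations above 0.1, and single values ran from -0.282 to 0.394. Numbers were therefore not treated as pairs, except that the genotype difference kept the study's per-number fold changes. This rule cannot exclude pairing in a single comparison. In Col-0 at 12 h, Tm against DMSO, 6 of 6 libraries correlated best with their own number (r from 0.0524 to 0.110). The named genes were the 10 ERF genes, all genes of lists written by pathway, and the 2 most similar genes of each. The members and lists were chosen with earlier results of these data known. Alternatives were another pseudocount, scaling, filters, variance model, fit over all libraries, replicate block, thresholds, and leaving out each library. Scripts were tested on simulated data.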

Additional observations from a re-analysis of the deposited data

Results flagged for a closer look

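At 12 h of recovery 18 differences in Tm response between a mutant and Col-0 passed a test of the difference itself (limma on fold changes per replicate number, adjusted p under 0.05) among the genes of the lists. Of all genes tested 1.22% were called higher and 2.17% lower in *bzip28-2*, and 1.14% and 2.32% in *bzip60-2*. *ERF105* was lower in both mutants, at -1.38 ± 0.21 (SE, adjusted p = 0.0347) in *bzip28-2* and -1.55 ± 0.19 (SE, adjusted p = 0.0255) in *bzip60-2*. With 1 library left out these calls were kept in 0 of 12 and 4 of 12 fits. In *bzip28-2*, *ERF107* was at -1.11 ± 0.09 (SE, adjusted p = 0.0136), *ABR1* at 0.77 ± 0.12 (SE, adjusted p = 0.0365), *EIL1*, an ethylene signalling factor, at -0.51 ± 0.09 (SE, adjusted p = 0.0444), and *ASA1* at 0.78 ± 0.14 (SE, adjusted p = 0.0485). In *bzip60-2*, AT5G43410 was at 1.80 ± 0.20 (SE, adjusted p = 0.0226), *WRKY40* at -1.69 ± 0.23 (SE, adjusted p = 0.0288), *SZF1* at -1.35 ± 0.19 (SE, adjusted p = 0.0294), *TCH3* at -1.22 ± 0.17 (SE, adjusted p = 0.0303) and *WRKY33* at -0.98 ± 0.14 (SE, adjusted p = 0.0297). Among the root markers *COBL9* (-1.33 ± 0.12 (SE, adjusted p = 0.0187)), *EXPA7* (-2.09 ± 0.36 (SE, adjusted p = 0.0452)) and *PRP3* (-1.84 ± 0.22 (SE, adjusted p = 0.0226)) were lower in *bzip28-2* and *PRP3* (-1.48 ± 0.27 (SE, adjusted p = 0.0493)) in *bzip60-2*. The interrupted genes were lower in their own mutants, bZIP28 at -1.13 ± 0.08 (SE, adjusted p = 0.0126) and bZIP60 at -0.91 ± 0.16 (SE, adjusted p = 0.0443), and *BIP3* was at 1.27 ± 0.14 (SE, adjusted p = 0.0229) in *bzip60-2*. The 2 mutants share the Col-0 libraries in these tests. With 3 libraries a group, no test for a single outlying library was made.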

How the results depend on the processing

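Single-gene results were counted only for comparisons called in the main fit or in an alternative other than a changed p threshold. Of their 576 alternative values 465 kept their direction and their side of the threshold, 79 lost the call, 32 gained it and 0 reversed. For the genotype difference the fits without the DMSO and without the Tm library of a replicate number are the same fit, and both count. The Tm count at 12 h (13) ran from 11 to 14 without 1 library, and the count at 24 h (6) from 4 to 8, with 1 under a replicate block. The numbers share no pairing in the labels, and in 1 of 21 comparisons, Tm against DMSO in Col-0 at 12 h, every library correlated best with its own number. For the genotype difference, which was tested on fold changes per replicate number, the fit without a replicate block kept *ERF105* at -1.38 (adjusted p = 0.0123) and -1.55 (adjusted p = 0.00611). Its count of 2 at 12 h became 1 without a filter, 5 with a mean FPKM of at least 1, 5 at an unadjusted p under 0.01, and 0 to 2 without 1 library. At 24 h an unadjusted p under 0.01 gave 1 higher and 1 lower in place of 0. The 0 of the DMSO genotype comparison at 12 h became 1 in 1 fit over all libraries and 1 at an adjusted p under 0.05.

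The DMSO time-course count at 12 h (2) was 1 after scaling, 1 without a filter, 4 in 1 fit over all libraries, 0 under a replicate block, 4 at an adjusted p under 0.05, and 0 to 2 without 1 library. At 24 h the count of 1 was 0 with a pseudocount of 0.1, 0 without a filter, 2 with a mean FPKM of at least 1, 2 in 1 fit over all libraries, 0 under a replicate block, 2 at an adjusted p under 0.05, and 0 to 1 without 1 library. Keeping only the higher-scoring peaks of each list left 1 gene in place of 2, and starts taken from the gene span in place of the mRNA, a choice made after seeing the data, also left 1. The median correlation of 0.4141 was 0.5889 without the 0 h groups and 0.3517 to 0.4554 without 1 replicate of every group, likewise chosen after seeing the data. The cause of these changes was not tested. With 3 libraries a group and RNA-seq read totals unknown, low values such as those of *ERF1*, *ERF13* and *ERF109* carry the least precision.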
